A study of Mus musculus with 12 samples.

Results

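The aminoacyl-tRNA synthetases of mouse oocytes were followed by diet and by pool. The set was a list of 36 gene symbols, 20 for cytosolic and 16 for mitochondrial enzymes, and all 36 had a row among the 24062 genes of the deposited count table. The study sequenced RNA from 6 pools of oocytes of females fed a high-fat diet (HFD) for 9 weeks and from 6 pools of females fed a control diet (CD) over the same weeks. The females of both diets were then mated with vasectomized males, all ate the control feed during mating, and oocytes were taken at day 0.5 after coitus. Each library came from 4 pooled oocytes. The submitters list 6 females per diet, without saying which female gave which pool, so p-values measure only how pools vary, and some of that variation may be technical. The labels give both feeds 1 product code, calling the HFD a modified version, and the content of the control feed is therefore uncertain.

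An aminoacyl-tRNA synthetase joins an amino acid to the transfer RNAs that carry its anticodon, and so sets the genetic code at the point of use. Most amino acids have a cytosolic enzyme and a separate mitochondrial enzyme, both encoded in the nucleus, while Gars and Kars each give an enzyme to both places, and a mitochondrial glutaminyl-tRNA is made by converting a mischarged one. In mammals several of the cytosolic enzymes sit with scaffold proteins in the multisynthetase complex. Oocytes store messenger RNA and translate it during maturation and after fertilisation, when transcription is silent.

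The identity of the pools was read from marker lists. All 10 oocyte markers passed the filter on low counts, with summed levels of 12391 to 28114 CPM (counts scaled to a common library total) in HFD pools and 9734 to 18618 CPM in CD pools. Of 14 cumulus and granulosa markers, 3 passed, and Amh and Ptx3 were at 0 in every pool. The sums ran from 113 to 1818 CPM in HFD and from 133 to 1356 CPM in CD. Most of each sum was the single gene Serpine2, at 71.0 to 1764 CPM in HFD and 93.7 to 1300 CPM in CD. Oviduct markers summed to 1.10 to 26.1 CPM in HFD and 2.98 to 8.47 CPM in CD, with 1 of 5 passing. Blood and immune markers summed to 2.49 to 9.39 CPM in HFD and 2.19 to 7.40 CPM in CD, also with 1 of 5 passing, and the haemoglobin genes Hbb-bs and Hba-a1 were at 0. 4 pools stood apart in the oocyte genes Gdf9, Mos and Zp3, HFD replicates 1 and 2 and CD replicates 2 and 4. In them Gdf9, an oocyte growth factor, held 543 to 616 CPM, against 4601 to 9642 CPM in the other 8 pools. Mos, the kinase that holds the egg in meiotic arrest, held 3.84 to 9.40 CPM there, against 146 to 1702 CPM. The zona pellucida gene Zp3 held 10.96 to 15.1 CPM there, against 46.0 to 3942 CPM, and the cumulus marker Serpine2 71.0 to 125 CPM, against 303 to 1764 CPM. Not every oocyte marker followed this split. Dppa3 was highest of all pools in HFD replicate 1, at 20380 CPM, and Bmp15 was lowest in HFD replicates 5 and 6, at 295 and 241 CPM. HFD replicate 3 stood far above the rest in the zona pellucida genes, at 3942 CPM for Zp3, 1061 CPM for Zp2 and 838 CPM for Zp1. The other pools held at most 195, 77.5 and 330 CPM of these genes. Several results are given with and without the 4 pools low in Gdf9. For other genes, among them Sars and Cars2, values without these 4 pools are not given. Gene counts totalled 8409491 to 13793598 per HFD library and 8556396 to 10477316 per CD library. HFD replicates 1, 2, 4 and 6 held even counts only, which no CD library did. In RNA from a pool, fewer cells of a type and less RNA per cell cannot be told apart.

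The cytosolic enzymes were far more abundant than the mitochondrial ones. To set genes side by side, levels are given as CPM per kilobase of transcript, with the mean over the 12 pools for each gene. The median of the 20 cytosolic genes was 14.1 CPM per kb, with a range of 0.031 to 281, and 12 of them stood above 10. For the 16 mitochondrial genes the median was 0.352 CPM per kb, with a range of 0.0131 to 66.6, of which 2 stood above 10 and 10 below 1. The ratio of those medians was 40.0. Taken pool by pool on the log2 scale, the gap between the medians averaged 4.78, or 27.5-fold, and 3.38, or 10.4-fold, with means over genes in place of medians.

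**Figure D1:**
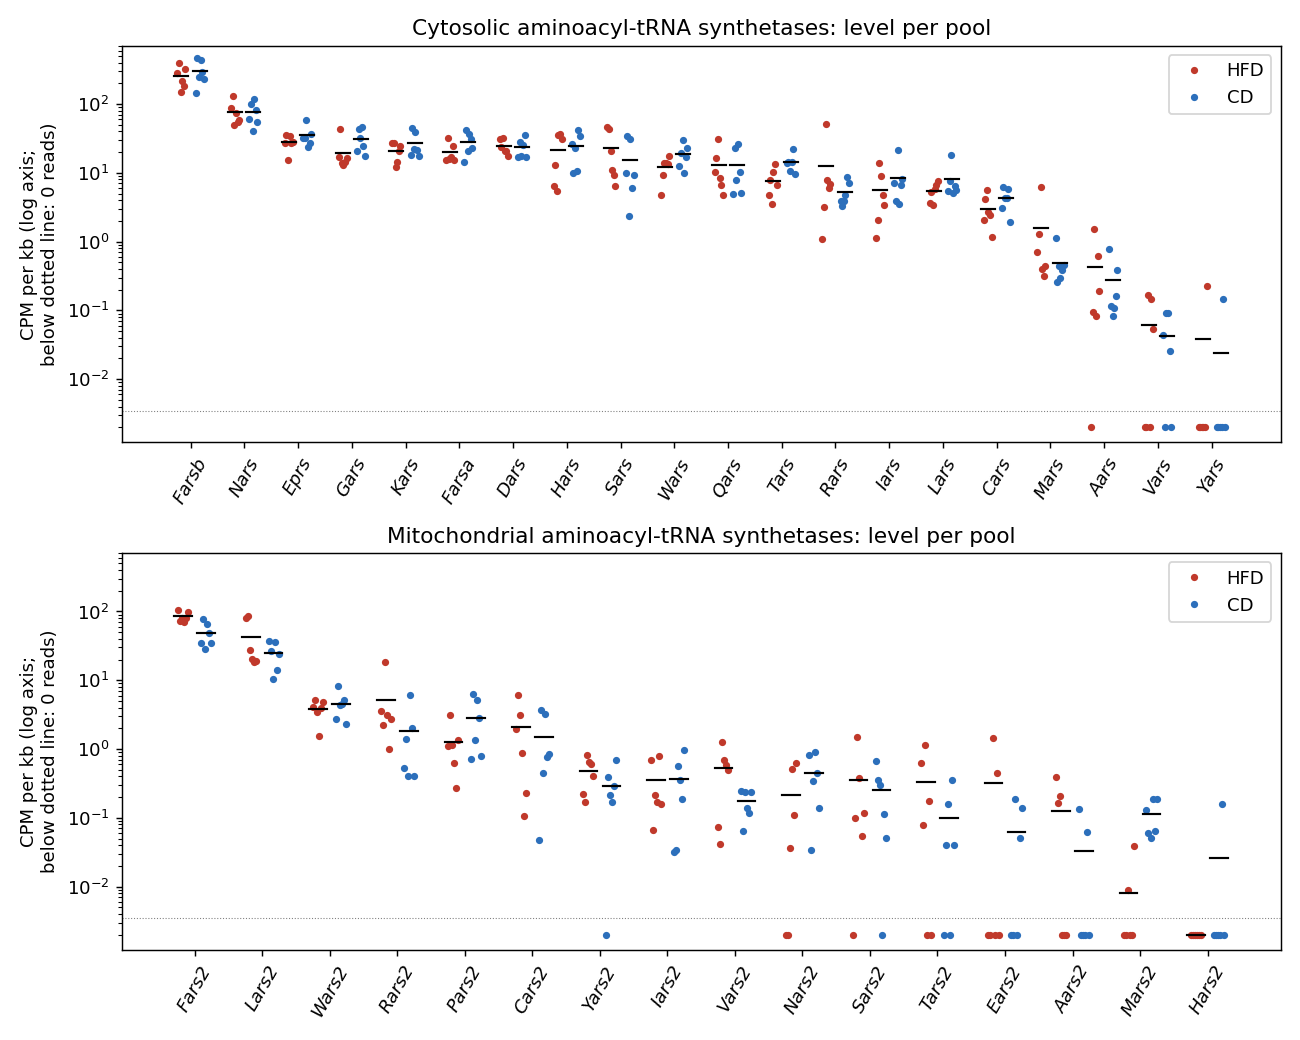
Level of each synthetase in each pool, in CPM per kilobase on a log axis, with HFD pools in red left of CD pools in blue and a bar at the mean of 6 pools. Pools with 0 reads lie below the dotted line. Farsb is the highest gene of the upper panel, and in the lower panel Fars2 and Lars2 stand above 10 while most others stand below 1.

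Farsb, which encodes the beta subunit of the cytosolic phenylalanyl-tRNA synthetase (chromosome 1, 78417975 to 78488897, minus strand, mm10), had the highest level of the whole set. It stood at 260 ± 93.4 CPM per kb in HFD and 303 ± 125 CPM per kb in CD (SD, n = 6 each). By pool, Farsb held 572, 793, 298, 429, 370 and 646 CPM in HFD replicates 1 to 6, against 286, 929, 489, 872, 582 and 466 CPM in CD replicates 1 to 6. The diets overlapped over most of their range. Its partner Farsa, the alpha subunit, stood much lower, at 20.0 ± 6.75 CPM per kb in HFD and 27.8 ± 10.3 CPM per kb in CD. Per length, Farsb exceeded Farsa by 7.67-fold to 20.8-fold in HFD pools and by 9.40-fold to 12.1-fold in CD pools, although the enzyme holds the subunits in equal number. Farsb shares 248 exonic bases with Sgpp2 on the other strand, and as the kit does not mark strand, reads there cannot be told apart.

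Nars, the asparaginyl-tRNA synthetase, was next among the cytosolic genes, with 75.5 ± 29.4 CPM per kb in HFD and 76.5 ± 29.9 CPM per kb in CD. Its pools held 232, 347, 135, 198, 147 and 159 CPM in HFD replicates 1 to 6 and 163, 269, 110, 324, 219 and 149 CPM in CD replicates 1 to 6, with nearly the same mean and spread. Below it came Eprs, the fused glutamyl- and prolyl-tRNA synthetase, at 31.7 CPM per kb over the 12 pools. A group of neighbours followed that did not differ beyond their spread over pools. It held Gars (glycine), Kars (lysine), Farsa, Dars (aspartate) and Hars (histidine), between 25.3 and 22.8 CPM per kb. Sars (serine), Wars (tryptophan), Qars (glutamine) and Tars (threonine) lay between 19.2 and 10.9 CPM per kb. Rars (arginine), Iars (isoleucine), Lars (leucine), Cars (cysteine) and Mars (methionine) lay between 8.95 and 1.04 CPM per kb.

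At the low end of the cytosolic genes were Aars (alanine), Vars (valine) and Yars (tyrosine), with 0.348, 0.0518 and 0.0310 CPM per kb over the 12 pools. None of these passed the filter. Aars was detected in all pools but HFD replicate 1, with 89 reads in HFD replicate 3 and 50 in CD replicate 1 as its highest counts. Vars had at most 7 reads in any HFD pool and at most 4 in any CD pool. For Yars 6 reads were counted in HFD replicate 6 and 4 reads in CD replicate 5, and none elsewhere. Such counts describe the reads assigned to these symbols, and how shared or repeated alignments were treated is not stated. A further 1326 exonic bases of Aars are shared with Exosc6 on the same strand.

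Among the mitochondrial genes, Fars2 and Lars2 stood apart. Fars2, the mitochondrial phenylalanyl-tRNA synthetase, which works as a single chain (chromosome 13, 36117412 to 36726280, plus strand), had 84.8 ± 14.0 CPM per kb in HFD and 48.4 ± 19.6 CPM per kb in CD. Lars2, the mitochondrial leucyl-tRNA synthetase (chromosome 9, 123366927 to 123462666, plus strand), had 41.9 ± 31.8 CPM per kb in HFD and 24.7 ± 11.1 CPM per kb in CD. The pair made up 89.6% ± 5.74 of the summed CPM of the mitochondrial genes in HFD and 85.2% ± 4.77 in CD. Wars2 (tryptophan), Rars2 (arginine), Pars2 (proline) and Cars2 (cysteine) lay between 4.20 and 1.79 CPM per kb over the 12 pools. The other 10 lay between 0.386 and 0.0131 CPM per kb, and of these Vars2 (valine) was the only one to pass the filter.

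When each cytosolic gene was set against the mitochondrial gene for the same amino acid, 17 pairs could be formed. Eprs was paired with both Ears2 and Pars2, and Fars2 with both Farsa and Farsb. The cytosolic gene was higher per length in all 12 pools for 10 of the pairs, such as Nars over Nars2 and Tars over Tars2. In 4 pairs the mitochondrial gene had the higher mean. Farsa did not exceed Fars2 in any pool, with means of 23.9 CPM per kb for Farsa and 66.6 CPM per kb for Fars2. Farsb, the other subunit of the cytosolic enzyme, exceeded Fars2 in all 12 pools, with a mean of 281 CPM per kb. Lars exceeded Lars2 in 1 CD pool and no HFD pool, with means of 6.75 and 33.3 CPM per kb. Vars and Yars did not exceed Vars2 and Yars2 in any pool, all of them below 1 CPM per kb on average.

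The diets were then compared for each enzyme with edgeR's quasi-likelihood test over the whole table, to ask whether a high-fat diet before mating altered the transcripts for tRNA charging. Of the 36 genes, 24 passed the filter and were tested, 17 cytosolic and 7 mitochondrial. None of them passed an adjusted p of 0.05, against a background of 0.0% of the 9935 genes tested, where the smallest adjusted p was 0.0913. DESeq2 called 769 genes of the table, 7.74% of those tested, which include 1825 that it gave no adjusted p. The second method, limma-voom with quality weights, called 35, or 0.352%. Neither called a synthetase, nor did edgeR on the 8 libraries with odd counts, where 4.03% of 11305 genes passed. Without the 4 pools low in Gdf9, edgeR called none of 9914 genes, and 2406 had an unadjusted p under 0.05. At an unadjusted p under 0.05 edgeR gave 4 of the 24 synthetases (Fars2, Mars and Vars2 higher and Tars lower in HFD), against a background of 22.3% of all genes tested. That background was 1332 genes higher (13.4%) and 883 lower (8.89%), or 1079 higher and 1262 lower when libraries were scaled by their total gene counts alone. The diets did not separate without overlap for any of the 24, where 2.45% of all tested genes did.

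Within the cytosolic enzymes, the log2 fold change of HFD over CD was above 0 for 5 and below 0 for 12 of the 17 tested, with a median of −0.33. For the 7 mitochondrial enzymes tested it was above 0 for 5 and below 0 for 2, with a median of 0.76. Over all genes tested the median was 0.04, and 51.8% were above 0. These counts cover genes that passed the filter, and no direction is called from them, since no enzyme passed the test. Fitted without the filter, 6 of 20 cytosolic genes were above 0 with a median of −0.25, and 10 of 16 mitochondrial genes with a median of 0.52. Without CD replicate 3 the cytosolic median was −0.19, and without HFD replicate 3 the mitochondrial median was 0.47. Without replicate 3 of either diet they were −0.18 and 0.26, and without the 4 pools low in Gdf9 −0.22 and 1.07. Among the 8 libraries with odd counts, which leave 2 HFD pools, the mitochondrial median was 0.0044.

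**Figure D2:**
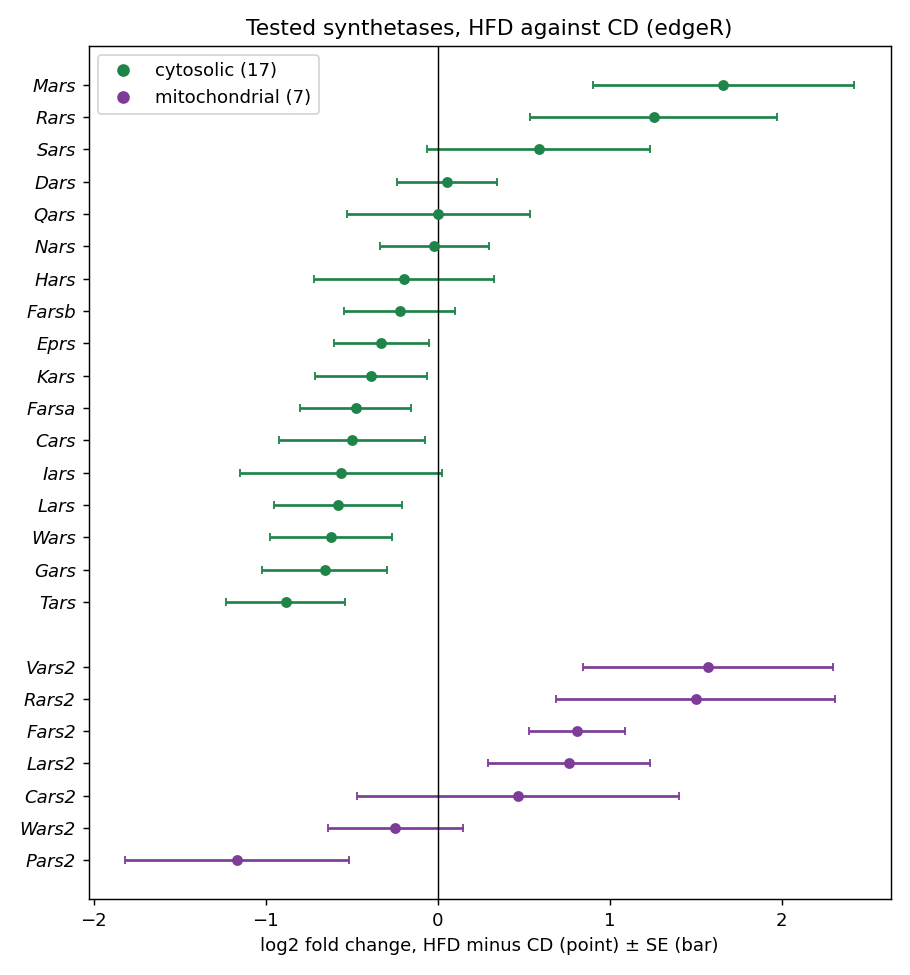
Log2 fold change of HFD over CD for the 24 tested synthetases, as points with bars of 1 standard error either side, from edgeR. 12 cytosolic genes lie left of 0, Dars and Qars lie close to 0, Mars, Rars and Sars lie further right, and 5 of 7 mitochondrial genes lie to the right, though no gene passed the adjusted threshold.

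Tars, the threonyl-tRNA synthetase (chromosome 15, 11382301 to 11399665, minus strand), had the smallest p of the cytosolic genes. It held 19.0, 31.3, 14.1, 40.9, 53.2 and 26.3 CPM in HFD replicates 1 to 6, against 55.0, 57.6, 42.9, 58.2, 87.6 and 39.0 CPM in CD replicates 1 to 6. Every HFD pool lay below the CD mean, and the ranges overlapped between 39.0 and 53.2 CPM. The means were 30.8 ± 14.5 CPM in HFD and 56.7 ± 17.1 CPM in CD, which gave a fitted log2 fold change of −0.88 ± 0.35 (SE; edgeR, adjusted p = 0.160). With each library left out in turn it lay between −1.12 and −0.72.

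Gars, the glycyl-tRNA synthetase of the cytosol and the mitochondrion (chromosome 6, 55038007 to 55079500, plus strand), held 40.0, 102, 33.4, 31.4, 34.3 and 38.6 CPM in HFD replicates 1 to 6. The CD replicates 1 to 6 held 50.1, 103, 77.3, 111, 59.4 and 41.4 CPM. 5 of the HFD pools lay below all CD pools, and HFD replicate 2 lay near the highest of them. The log2 fold change was −0.66 ± 0.36 (edgeR, adjusted p = 0.298), and −1.05 without HFD replicate 2. Without the 4 pools low in Gdf9 it was −0.72 for Gars and −0.74 for Tars.

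The promoters of Tars and Gars are shown because both hold the amino acid response element TGATGNAA, the sequence through which ATF4 is known to drive synthetase genes when amino acids run short. The sequences are the 250 bases before the start that RefSeq (GRCm38.p6) uses for each gene, with the element in capitals as it reads on the gene's strand. They lie at chr15:11399659-11399908 (minus strand) for Tars and chr6:55037751-55038000 (plus strand) for Gars.
Tars: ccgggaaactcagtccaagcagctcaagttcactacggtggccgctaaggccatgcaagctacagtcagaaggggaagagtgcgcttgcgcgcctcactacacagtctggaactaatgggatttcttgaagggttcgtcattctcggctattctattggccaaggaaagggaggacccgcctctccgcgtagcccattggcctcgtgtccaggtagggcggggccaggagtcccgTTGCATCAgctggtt
Gars: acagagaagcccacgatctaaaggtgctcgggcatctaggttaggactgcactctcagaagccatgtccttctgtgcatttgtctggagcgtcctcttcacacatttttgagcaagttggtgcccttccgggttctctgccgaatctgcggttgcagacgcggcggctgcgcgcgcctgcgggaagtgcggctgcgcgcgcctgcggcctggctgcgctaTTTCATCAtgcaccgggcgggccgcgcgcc
The element begins 15 bases before the start in Tars and 30 bases before it in Gars. Windows of 300 bases, 250 before and 50 after the start, were searched on both strands for 27 of the 36 genes, and 9 had no window. TGATGNAA lay in the windows of Aars, Gars, Iars, Tars and Yars, against 3.97% of all 32851 windows. The E-box CACGTG lay in 5 (Aars, Ears2, Farsb, Iars and Tars), against 7.15% of all windows. A match describes letters in a window, not binding. Of the genes with TGATGNAA, the 3 that were tested had log2 fold changes of −0.88 for Tars, −0.66 for Gars and −0.56 for Iars, the last of which was −0.08 without CD replicate 3, and none passed the test. Aars and Yars, which had few reads, were at 0.52 ± 0.93 and 0.53 ± 1.59 when fitted without the filter (edgeR, adjusted p = 0.791 and 0.883).

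Wars, the tryptophanyl-tRNA synthetase (chromosome 12, 108860030 to 108894174, minus strand), held 13.1, 26.0, 37.9, 38.3, 37.4 and 48.1 CPM in HFD replicates 1 to 6, against 34.7, 53.7, 82.7, 27.0, 46.8 and 63.4 CPM in CD replicates 1 to 6. The diets overlapped, with 2 HFD pools under the lowest CD pool and 3 CD pools above the highest HFD pool. Its log2 fold change was −0.62 ± 0.35 (edgeR, adjusted p = 0.314).

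Mars, the methionyl-tRNA synthetase that also charges the initiator tRNA (chromosome 10, 127296221 to 127311786, minus strand), had few reads. It held 2.11, 3.87, 18.6, 1.18, 0.921 and 1.32 CPM in HFD replicates 1 to 6, against 3.34, 0.769, 1.32, 0.872, 1.15 and 1.33 CPM in CD replicates 1 to 6. A single pool, HFD replicate 3, stood far above the rest. The fitted log2 fold change was 1.66 ± 0.76 (edgeR, adjusted p = 0.215), and 0.35 without HFD replicate 3. Rars behaved alike, with 107 CPM in HFD replicate 3, at most 16.5 CPM in the other HFD pools and at most 18.5 CPM in the CD pools. Its log2 fold change of 1.26 ± 0.72 (edgeR, adjusted p = 0.315) was −0.10 without that pool. Mars shares 68 exonic bases with Ddit3 on the other strand.

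**Figure D3:**
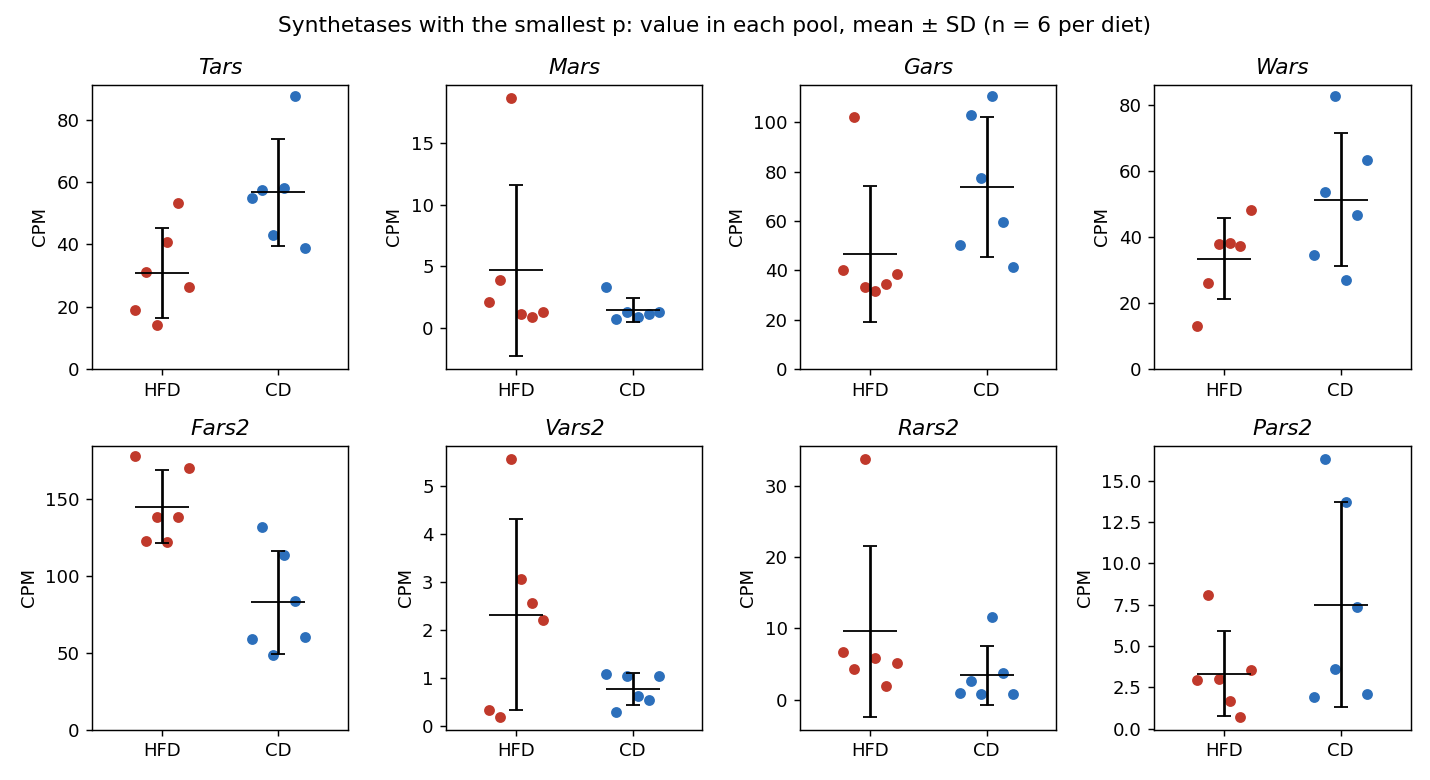
CPM in each pool for the 4 cytosolic (upper row) and 4 mitochondrial (lower row) synthetases with the smallest p, with the mean as a horizontal bar and the SD as a vertical one, n = 6 per diet. HFD pools of Tars lie mostly below and those of Fars2 mostly above the CD pools, while the HFD means of Mars and Rars2 rest on 1 pool.

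In the multisynthetase complex, which holds 8 of these enzymes, all 8 were tested, 4 above 0 and 4 below, with a median log2 fold change of −0.16. Those above 0 were Mars, Rars, Dars (0.06) and Qars (0.00), and those below were Eprs (−0.33), Kars (−0.39), Iars (−0.56) and Lars (−0.58). The values of Dars and Qars changed sign under several settings. Of the 9 tested cytosolic enzymes outside the complex, 8 were below 0 and Sars (0.59) above, with a median of −0.48. Beside Tars, Gars, Wars, Farsb (−0.22) and Nars (−0.02) these were Cars (−0.50), Farsa (−0.48) and Hars (−0.20), and the sign of Nars and Hars turned when single libraries were left out. Adjusted p-values from edgeR over these enzymes ran from 0.160 to 0.997. By the fold of the catalytic domain, the 13 tested class I enzymes had a median of 0.00 (7 above 0, 6 below). The 11 tested class II enzymes had a median of −0.22 (3 above 0, 8 below). Eprs, which fuses an enzyme of each class, was counted in class I only. Without HFD replicate 3 the class I median was −0.21 and the class II median −0.12, in the other order, so no difference between the classes is read.

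Among the mitochondrial enzymes, Fars2 had the smallest p of the 24 genes tested. It held 178, 122, 138, 122, 138 and 170 CPM in HFD replicates 1 to 6, against 58.7, 132, 48.3, 113, 83.7 and 60.1 CPM in CD replicates 1 to 6. All 6 HFD pools lay above the CD mean and 4 of them above every CD pool, the overlap coming from CD replicate 2. The means were 145 ± 23.9 CPM in HFD and 82.6 ± 33.5 CPM in CD, which gave a fitted log2 fold change of 0.81 ± 0.28 (edgeR, adjusted p = 0.124). With each library left out in turn the value lay between 0.66 and 0.99. Without the 4 pools that stood apart it was 1.19 (edgeR, adjusted p = 0.128), and the other 4 HFD pools all lay above the other 4 CD pools. How many of all genes separate likewise with 4 pools per diet was not counted. In that fit 2406 of 9914 genes had an unadjusted p under 0.05 (edgeR), and the pools were left out after the data were seen. Fars2 shares 501 exonic bases with Nrn1 and 115 with Lyrm4 on the other strand.

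Lars2 held 313, 331, 108, 79.7, 72.0 and 74.6 CPM in HFD replicates 1 to 6, against 147, 103, 40.6, 139, 54.2 and 92.9 CPM in CD replicates 1 to 6. HFD replicates 1 and 2 stood above all other pools, while the other 4 HFD pools lay within the CD range. For Lars2 the log2 fold change was 0.76 ± 0.47 (edgeR, adjusted p = 0.350), and −0.16 among the libraries with odd counts, which leave out both of the high HFD pools. These are among the pools low in Gdf9, and without all 4 such pools the value was 0.020.

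Vars2, the mitochondrial valyl-tRNA synthetase (chromosome 17, 35655634 to 35667592, minus strand), held 0.324, 0.184, 5.58, 3.07, 2.56 and 2.21 CPM in HFD replicates 1 to 6, against 1.08, 0.288, 1.04, 0.623, 0.524 and 1.05 CPM in CD replicates 1 to 6. HFD replicates 3 to 6 lay above every CD pool, and HFD replicate 2 lay below every CD pool. The log2 fold change was 1.57 ± 0.73 (edgeR, adjusted p = 0.217). Rars2, the mitochondrial arginyl-tRNA synthetase (chromosome 4, 34614957 to 34660167, plus strand), held 6.65, 4.23, 33.9, 5.91, 1.84 and 5.07 CPM in HFD replicates 1 to 6, against 0.994, 2.59, 0.756, 11.6, 3.77 and 0.761 CPM in CD replicates 1 to 6. HFD replicate 3 and CD replicate 4 were the highest pools of their diets. The log2 fold change was 1.50 ± 0.81 (edgeR, adjusted p = 0.285), 0.47 without HFD replicate 3 and 2.42 without CD replicate 4. Without the 4 pools that stood apart, it was 2.93 for Rars2 and 1.87 for Vars2.

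Pars2, the mitochondrial prolyl-tRNA synthetase (chromosome 4, 106651069 to 106655282, plus strand), pointed the other way. It held 2.92, 8.10, 2.99, 1.65, 0.716 and 3.53 CPM in HFD replicates 1 to 6, against 1.90, 16.3, 3.59, 13.7, 7.34 and 2.09 CPM in CD replicates 1 to 6. CD replicates 2 and 4 were higher than every HFD pool, and CD replicates 3 and 5 were higher than all HFD pools but replicate 2. CD replicates 1 and 6 lay among the HFD pools. Its fitted log2 fold change was −1.17 ± 0.65 (edgeR, adjusted p = 0.301), and −0.73 without the 4 pools low in Gdf9, which held the highest HFD value and the 2 highest CD values. The remaining tested genes were Cars2, with 0.47 ± 0.94, and Wars2, with −0.25 ± 0.39 (edgeR, adjusted p = 0.805 and 0.747).

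Of the 16 mitochondrial genes, 9 did not pass the filter. Mars2, the mitochondrial methionyl-tRNA synthetase (chromosome 1, 55237177 to 55248470, plus strand), is singled out after its values were seen. It had 0, 0, 1, 0, 0 and 4 reads in HFD replicates 1 to 6, against 16, 7, 6, 17, 7 and 22 reads in CD replicates 1 to 6. No HFD pool reached the lowest CD pool, with at most 4 reads against at least 6, and how many genes with so few reads separate likewise was not counted. Fitted without the filter, Mars2 showed a log2 difference of −3.73 ± 1.15 between the diets (edgeR, adjusted p = 0.152), the smallest p of the 12 genes left out by the filter. Its fitted size depends on the prior count, as most HFD pools are at 0. The deposited count for its cytosolic counterpart Mars gave the opposite sign, also without passing the test. Of the 17135 genes fitted without the filter, 3174 had an unadjusted p under 0.05 and 0 passed the adjusted threshold (edgeR).

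Hars2, the mitochondrial histidyl-tRNA synthetase, which lies head to head with Hars and shares 195 exonic bases with it, had no read in any HFD pool and 4 reads in CD replicate 5. Ears2 (glutamate) and Tars2 (threonine) had their highest counts in HFD replicate 3, with 30 and 27 reads. Aars2 (alanine) had 29 reads over the HFD pools and 7 over the CD pools, and Nars2 (asparagine) 32 over the HFD pools and 72 over the CD pools. Iars2 (isoleucine) had 62 reads over the HFD pools and 61 over the CD pools, Sars2 (serine) 39 and 30, and Yars2 (tyrosine) 61 and 39. These read sums are not scaled to library totals, and HFD replicates 1, 2, 4 and 6 held even counts only. Iars2 shares 2034 exonic bases with Rab3gap2 on the other strand.

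The gap between the compartments was narrower in most HFD pools than in the CD pools. Taken in each pool as the median log2 CPM per kb of the cytosolic genes minus that of the mitochondrial genes, it was 3.33, 5.69, 3.44, 4.05, 4.69 and 4.15 in HFD replicates 1 to 6. In CD replicates 1 to 6 it was 5.56, 6.12, 5.45, 5.22, 5.02 and 4.65. The means were 4.23 ± 0.87 in HFD and 5.33 ± 0.50 in CD, with HFD replicates 2 and 5 inside the CD range, and no test was made. Without the 4 pools low in Gdf9 they were 4.08 ± 0.51 in HFD and 5.17 ± 0.42 in CD (n = 4 each), where 3 of the 4 HFD pools lay below every CD pool. The mitochondrial median rests on genes with few reads, as 9 of the 16 did not pass the filter. The part of the even counts of HFD replicates 1, 2, 4 and 6 in this gap was not tested. Nor was that of HFD replicate 3, where 14755 genes were detected, against 12229 to 13052 in the other pools. The summed CPM of the mitochondrial genes was 342 ± 131 in HFD and 209 ± 73.4 in CD, and that of the cytosolic genes 1313 ± 293 in HFD and 1525 ± 393 in CD.

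**Figure D4:**
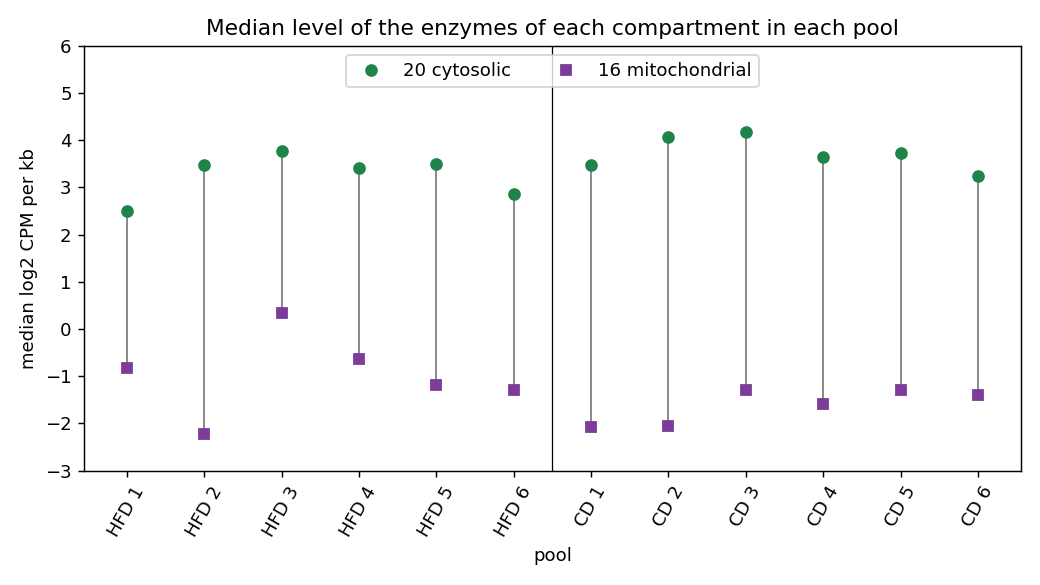
Median log2 CPM per kilobase of the 20 cytosolic (circles) and 16 mitochondrial (squares) synthetases in each pool, HFD pools left and CD pools right, joined by a line whose length is the gap. The gap is 3.33 to 5.69 in HFD pools and 4.65 to 6.12 in CD pools.

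Some enzymes varied more between pools of 1 diet than between diets. Sars, named after its values were seen, held 128, 119, 55.9, 29.8, 25.7 and 17.7 CPM in HFD replicates 1 to 6, against 26.8, 92.3, 6.33, 84.0, 16.2 and 25.0 CPM in CD replicates 1 to 6. It was highest in HFD replicates 1 and 2 and CD replicates 2 and 4. Those are the 4 pools in which Gdf9, Mos, Zp3 and Serpine2 were lowest. Sars ran from 84.0 to 128 CPM in them and from 6.33 to 55.9 CPM in the other 8. The part of these markers or pools in the spread of Sars was not tested.

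Counting for each pool how many of the 24 tested genes had it among their 4 highest pools gave 8, 13, 10, 6, 4 and 6 for HFD replicates 1 to 6. The same count was 3, 15, 5, 13, 8 and 5 for CD replicates 1 to 6. HFD replicate 2, CD replicate 2 and CD replicate 4 were thus high for the most enzymes, and all 3 are among the 4 pools low in Gdf9, Mos, Zp3 and Serpine2. HFD replicate 3 was the highest pool for 5 of the 24 and the lowest for 5, and CD replicate 3 was the highest for 4 and the lowest for 5.

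**Figure D5:**
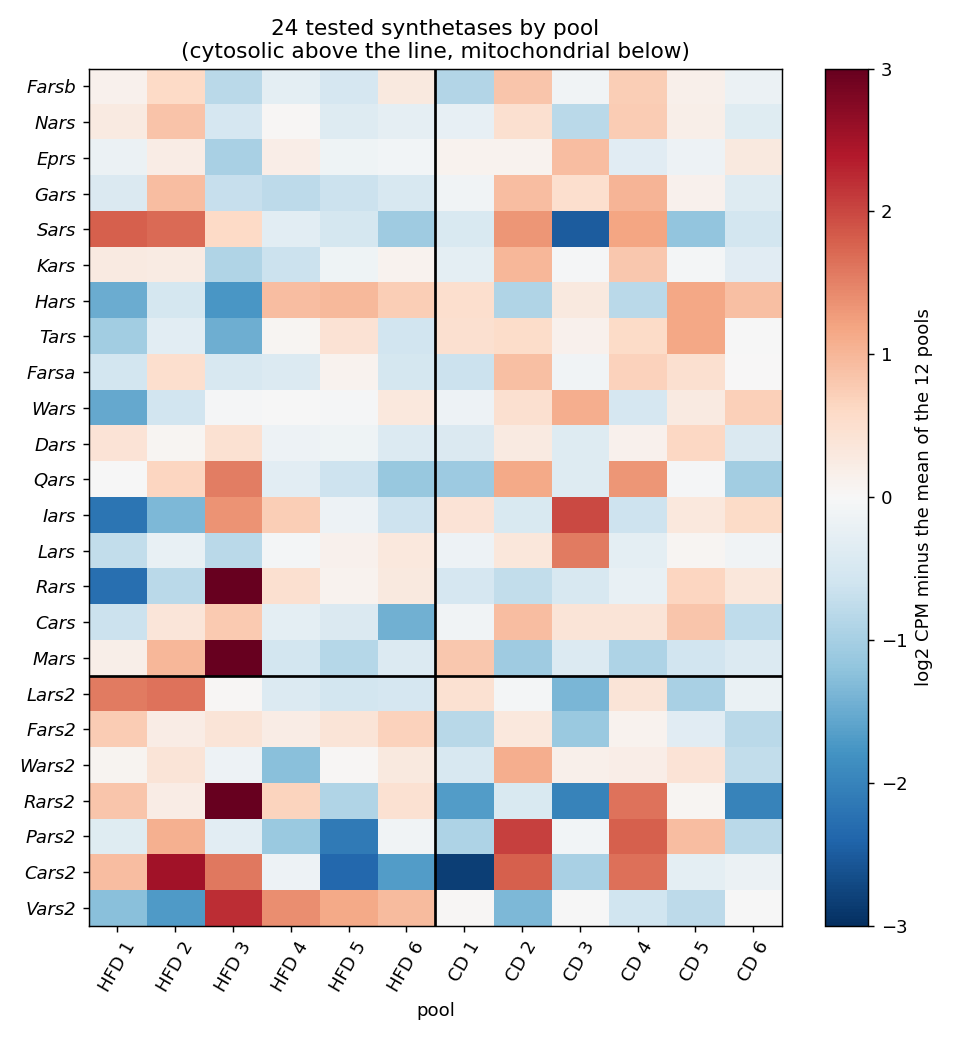
Log2 CPM of each tested synthetase in each pool minus its mean over the 12 pools, with HFD pools left of CD pools, cytosolic genes above the line and mitochondrial genes below. Colours stop at 3 in either direction, which 3 values exceed, and HFD replicate 3 carries the highest values of Rars, Mars and Rars2.

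The genes for the subunits of the cytosolic phenylalanyl-tRNA synthetase, Farsa and Farsb, went up and down together over the CD pools. Over all 12 pools the log2 CPM of Farsa and Farsb had Pearson's r = 0.73 (permutation test, p = 0.00872) and Spearman's rho = 0.66 (p = 0.0215, permutation test), and this was the only pair computed. Without CD replicates 2 and 4, the farthest from the median of Farsa, r was 0.51 (permutation test, p = 0.139), so the relation was no longer past the threshold. The same held without the 4 pools low in Gdf9, which include these, with r = 0.43 (exact permutation test, p = 0.279, n = 8). Among the 8 libraries with odd counts r was 0.95 (exact permutation test, p = 0.000893). Within the 6 HFD pools r was 0.35 (exact permutation test, p = 0.5), and within the 6 CD pools it was 0.98 (exact permutation test, p = 0.00556). The difference between the diets in this relation was not tested.

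Transcript length moved with the fold changes over the whole table. In 5 equal classes of transcript length, shortest first, the median log2 fold change of all genes was 0.85, 0.19, −0.15, −0.27 and −0.25. The tested synthetases spanned 1410 to 4906 nt, and the 6367 tested genes in that span had a median of −0.08. With the length trend of each library removed, the medians were −0.30 for the cytosolic and 0.61 for the mitochondrial enzymes.

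The proteins that work with the synthetases were read from a separate list of 16 genes, which holds the scaffold proteins of the complex, editing proteins, peptidyl-tRNA hydrolases, and enzymes that modify the amino acid on a charged tRNA. Of these, 12 were tested, 11 above 0 and 1 below, and the median log2 fold change was 1.16, which was 0.50 without HFD replicate 3 and 0.46 with the length trend removed. Eef1e1, a scaffold protein of the complex, had 93.2 ± 74.6 CPM in HFD and 21.1 ± 7.21 CPM in CD, which gave a fitted log2 fold change of 2.14 ± 0.48 (edgeR, adjusted p = 0.0913). Prorsd1, a homologue of the prolyl editing domain, had 9.51 ± 2.92 CPM in HFD and 4.35 ± 1.21 CPM in CD, 1.12 ± 0.36, with every HFD pool above every CD pool (edgeR, adjusted p = 0.108). Ptrhd1, which resembles peptidyl-tRNA hydrolases, had 27.0 ± 27.6 CPM in HFD and 7.74 ± 2.41 CPM in CD, 1.80 ± 0.54, or 1.06 without HFD replicate 3 (edgeR, adjusted p = 0.0973). DESeq2 called these 3 genes (adjusted p = 0.0021 for Eef1e1, 0.0215 for Prorsd1 and 0.0176 for Ptrhd1), where edgeR called none. Over all genes tested, DESeq2 called 7.74%, the diets did not overlap for 2.45%, and 51.8% were above 0. The 3 genes had the smallest p of this list, which was chosen with earlier results of these data known. No direction is read from the list.

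Genes for tRNA maturation and export were tested for 16 of 24, with 11 above 0, 5 below and a median of 0.17 for the log2 fold change, which was −0.13 without HFD replicate 3. Rpp30, a subunit of ribonuclease P, which trims the 5′ end of tRNA, had 24.0 ± 9.91 CPM in HFD and 11.3 ± 2.88 CPM in CD. Its log2 fold change was 1.09 ± 0.33, with no overlap of the diets (edgeR, adjusted p = 0.104, and DESeq2, adjusted p = 0.0194). Of all genes tested, 2.45% had no overlap and DESeq2 called 7.74%. Elac2, which cuts the 3′ end, had 22.0 ± 11.5 CPM in HFD and 48.2 ± 22.8 CPM in CD, −1.13 ± 0.43 (edgeR, adjusted p = 0.149). Nsun2, a tRNA cytosine methyltransferase, had 12.2 ± 5.47 CPM in HFD and 25.2 ± 9.56 CPM in CD, −1.04 ± 0.40 (edgeR, adjusted p = 0.153).

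Elongation factors, which bring charged tRNA to the ribosome, were tested for 8 of 9, with 5 above 0, 3 below and a median of 0.21, which was −0.01 without HFD replicate 3. Eef1d (1.65 ± 0.64) and Eef1a1 (1.77 ± 0.74) fell short of the threshold (edgeR, adjusted p = 0.159 and 0.183) and were 0.36 and 0.37 without that pool. The mitochondrial factor Gfm1 had 64.8 ± 26.4 CPM in HFD and 114 ± 36.3 CPM in CD, −0.82 ± 0.33 (edgeR, adjusted p = 0.167). Genes of the amino acid response were tested for 13 of 18, with 5 above 0, 8 below and a median of −0.23. Ddit3, a transcription factor induced by ATF4, had 14.6 ± 18.4 CPM in HFD and 2.07 ± 1.82 CPM in CD, 2.82 ± 0.88, or 1.79 without HFD replicate 3 (edgeR, adjusted p = 0.105, and DESeq2, adjusted p = 0.012). Cebpg, the partner of ATF4, had −0.45 ± 0.24, and Slc7a11, the cystine transporter, −0.54 ± 0.37 (edgeR, adjusted p = 0.277 and 0.403). Atf4 itself, named after its values were seen, had 70.6 ± 62.0 CPM in HFD and 41.7 ± 35.5 CPM in CD. Its log2 fold change was 0.76 ± 0.73 (edgeR, adjusted p = 0.572), and it was highest in HFD replicates 1 to 3 and CD replicates 2 and 4.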

How the data were processed

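RNA of 12 pools of mouse oocytes, 6 HFD and 6 CD, was made into full-length cDNA by template switching and into libraries by tagmentation, per the labels' protocols, which does not mark strand. The authors deposited raw read counts as whole numbers for each gene symbol. Tools listed in the submitters' processing notes are HTSeq 1.0.0, DESeq2 1.0.19 and STAR, with mm10 as the build, and for the annotation and the options of the counter the sources used here say nothing. Lines with the counter's tallies, 66.5% to 72.9% of tallied reads in HFD and 62.3% to 66.6% in CD libraries, were left out of library sizes and tests. As the kit adds no molecular identifiers, reads may repeat a molecule. No 2 libraries of a diet agreed within sampling noise, and each was used as its own sample.

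The diets were compared over all genes with edgeR 4.0.16 in R 4.3.3 (TMM factors, default filter on low counts, robust quasi-likelihood F-test, two-sided, diet as the only term), with Benjamini-Hochberg adjustment over 9935 genes and a threshold of 0.05. The script was tested on simulated data. A positive log2 fold change means higher in HFD, standard errors follow from the F statistics, and log2 CPM used a prior count of 2. CPM are counts scaled with the TMM factors. Lengths are medians over the basic coding transcripts of GENCODE M21, which gave 95.5% of tested genes a length. Alternatives were DESeq2 1.42.0 (its test and its size factors), limma 3.58.1 (voom with quality weights), total counts, other filters, halved or omitted all-even libraries, removal of the length trend, the replicate number as a block, and each library left out. Leaving out replicate 3 of both diets, or the 4 pools with the lowest Gdf9, was added after the data were seen. The permutation tests of the correlation drew 100000 resamples for 12 pools and were exact for 6 or 8.

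The synthetases and the other gene lists were chosen with earlier results of these data known. Values in every pool are given for the 4 genes with the smallest p and the 2 highest per length in each compartment, and up to 3 genes with the smallest p are named from each other list. Any other gene singled out was chosen after its values were seen.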

Additional observations from a re-analysis of the deposited data

Results flagged for a closer look

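In 48 groups, the 6 pools of a diet for each of the 24 tested synthetases, 5 had 1 pool far from the others on the log2 scale, where chance marks about 1 group in 20. For Eprs, HFD replicate 3 was low at 76.2 CPM, against 133 to 174 CPM in the other HFD pools. For Gars, HFD replicate 2 was high at 102 CPM, against 31.4 to 40.0 CPM in the other HFD pools. For Wars2, HFD replicate 4 was low at 3.78 CPM, against 8.37 to 12.3 CPM. Among the CD pools, Lars was high in replicate 3 at 72.2 CPM, against 19.9 to 30.8 CPM, and Mars was high in replicate 1 at 3.34 CPM, against 0.769 to 1.33 CPM. The log2 fold change of Lars was −0.19 without CD replicate 3, against −0.58 with all pools.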

How the results depend on the processing

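No synthetase was called under any of the alternatives run, while the count over all genes, 0 in the main analysis, was 769 with DESeq2, 35 with limma-voom and 456 among the 8 libraries with odd counts, which hold 2 HFD pools. The median log2 fold change lay between −0.40 and −0.19 for cytosolic and between 0.43 and 0.95 for mitochondrial genes with each library left out. Among libraries with odd counts the mitochondrial median was 0.0044. The cytosolic over mitochondrial difference in level, an average of 4.78 over pools on the log2 scale, was 3.38 with means in place of medians. The correlation of Farsa and Farsb was 0.43 without the 4 pools lowest in Gdf9. Of 575 values of single genes under alternatives, 37 reversed, over 10 of the 24 genes, and the cause was not tested. Dars was −0.017 with total counts, −0.0025 without the filter, −0.15 with limma-voom, −0.38 with the length trend removed and −0.12 without replicate 3 of either diet. Qars was −0.065 without the filter, −0.15 with limma-voom, −0.016 with the length trend removed and −0.58 without replicate 3 of either diet. Rars was −0.13 with limma-voom and −0.18 without replicate 3 of either diet, Nars 0.050 with the length trend removed and 0.00088 without the 4 pools lowest in Gdf9, and Cars2 −0.20 with limma-voom. Among libraries with odd counts Iars was 0.056, Sars −0.12 and Lars2 −0.16. With each library left out, values ran from −0.050 to 0.19 for Dars, −0.43 to 0.023 for Hars, −0.24 to 0.15 for Nars, −0.47 to 0.33 for Qars, −0.10 to 1.50 for Rars, −0.25 to 0.95 for Cars2 and −0.41 to 0.0091 for Wars2. Scaling by total counts put the median log2 fold change of all genes at −0.06, against 0.04 with TMM. Same-numbered pools had correlations of −0.45 to 0.55, and 2 of 6 HFD pools correlated best with their own number. The replicate number is not stated to mark a shared batch, and so few values cannot settle whether it pairs the pools. With the replicate number as a block, 0 genes were called, 1255 had an unadjusted p under 0.05, and the medians were −0.35 for cytosolic and 0.59 for mitochondrial genes. The planned correlation of Hars and Hars2 was not computed because Hars2 had reads in 1 of 12 libraries. The 12 genes that did not pass the filter had few reads in most pools, and whether depth or the annotation behind the counts sets this was not tested.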
